A study of Homo sapiens and Mus musculus with 4 samples.

Results

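JUN, FOS, FOSL1 and FOSL2 are 4 genes of the AP-1 transcription factor family, and the binding of TEAD factors around them was described in RD cells and in YAP-ERMS cells. Members were the TEAD peaks whose midpoint lay within 100 kb of the start site of 1 of the 4 genes. They numbered 15 of 22681 peaks in RD and 40 of 47033 peaks in YAP-ERMS. Each list came from chromatin immunoprecipitation and sequencing (ChIP-seq), from 1 TEAD library and 1 control. RD is an established human embryonal rhabdomyosarcoma cell line, and its control was an IgG library. YAP-ERMS denotes mouse cells taken from tumours driven by YAP under Myf5-Cre or Pax7-CreER, drivers active in muscle precursor and satellite cells, and its control was an input library. The labels do not say which of the Cre drivers the sequenced cells carried or how many tumours they came from. There were no replicates, so no value below has a replicate error and no test between groups was possible.

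TEAD proteins bind DNA at M-CAT sites with the core GGAATG and recruit the co-activators YAP1 and WWTR1, which do not bind DNA themselves. AP-1 is a dimer of basic leucine zipper proteins, usually a JUN family member with a FOS family member, that binds TGANTCA. TEAD and AP-1 sites are often found in the same enhancers in other cell types, and AP-1 genes are induced early when quiescent muscle stem cells are activated. The lists show where TEAD was bound near the AP-1 genes, not whether those genes were expressed or regulated.

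Sequences are shown for FOSL2, which had an RD peak within 1 kb of its start site, and for JUN, whose mouse gene had a YAP-ERMS peak over its start site. The JUN sequence is the human one, where the nearest RD peak edge was 3898 bp away. The sequences below are those of the human genes from RefSeq on GRCh38.p14, a later build than the hg19 of the RD list, so peak edges were not placed on them. They lie at chr1:58784048-58784297 on the minus strand for JUN and at chr2:28392608-28392857 on the plus strand for FOSL2. Each runs over the 250 bases before the annotated start. The third is a 30-base stretch at chr2:28392851-28392880 across the FOSL2 start. Capitals mark TGACATCA in JUN, a known variant of the AP-1 site that was added to the search after the sequence had been seen, and the AP-1 site in FOSL2.
JUN: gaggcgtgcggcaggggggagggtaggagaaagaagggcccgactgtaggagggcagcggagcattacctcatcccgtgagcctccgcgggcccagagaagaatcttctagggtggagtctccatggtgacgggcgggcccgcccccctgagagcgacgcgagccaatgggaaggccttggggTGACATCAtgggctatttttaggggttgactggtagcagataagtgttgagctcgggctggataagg
FOSL2: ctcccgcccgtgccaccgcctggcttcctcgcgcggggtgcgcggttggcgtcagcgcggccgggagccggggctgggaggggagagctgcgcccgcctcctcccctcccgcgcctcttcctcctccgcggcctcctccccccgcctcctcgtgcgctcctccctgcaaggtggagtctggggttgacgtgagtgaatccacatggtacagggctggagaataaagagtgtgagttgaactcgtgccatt
FOSL2 start: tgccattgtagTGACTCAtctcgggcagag

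Of the 4 members, 3 had a promoter in the RefSeq table (JUN, FOS and FOSL2). Both strands of the 300 bases from 250 before to 50 after each start were searched. The TEAD core GGAATG was in none of these 3 windows, against 14.0% of the 35116 human promoters of the same length. AP-1 letters TGANTCA were found in FOSL2, at bases 5 to 11 after the start, and in 7.71% of all promoters. The JUN variant TGACATCA lay 67 to 60 bases before the start of JUN and was present in 2.61% of all promoters. Neither the cyclic AMP response element TGACGTCA (1.85% of all promoters) nor a CArG box, the serum response factor site (1.29%), was found in the 3 windows. Sites further upstream than 250 bases, and variants of these letters other than the JUN variant, were not searched for. A promoter without a match may therefore still hold such an element. These are letters in the reference sequence, and the sequences under the peaks themselves were not analysed here.

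Each peak carries the score that the authors deposited, read as 10 times the negative log10 of a p-value, and 80 was the lowest in both lists. It depends on depth, which is unknown here, and on the control, so scores are ranked within a list only. The median peak of the RD list scored 189 and was 335 bp wide, and the top 25% of scores began at 376 and the top 10% at 715. In YAP-ERMS the median peak scored 205 and was 1083 bp wide, and the same limits were 420 and 835. Whether the cells expressed muscle markers cannot be read from peak lists and was not checked. Start sites were given to the nearest 1 kb, so a distance from a start site is uncertain by about 0.5 kb. Distances are to the peak's midpoint, and upstream and downstream follow the gene's own strand.

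All 4 genes had at least 1 TEAD peak within 100 kb in RD, where 50.5% of all 200 kb windows of the list held a peak, and all 4 had one in YAP-ERMS, where 71.1% of windows did. The 15 RD peaks (exact Poisson 95% interval 8.40 to 24.7) compare with 6.16 in 4 windows at the mean of the RD list. The 40 YAP-ERMS peaks (28.6 to 54.5) compare with 14.6 in 4 windows at the mean of that list. These intervals cover counting error only and treat neighbouring peaks as independent, which they are not. The tiled windows include gene-poor and unassembled stretches, so a count above their mean does not tell AP-1 genes from other genes.

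**Figure D1:**
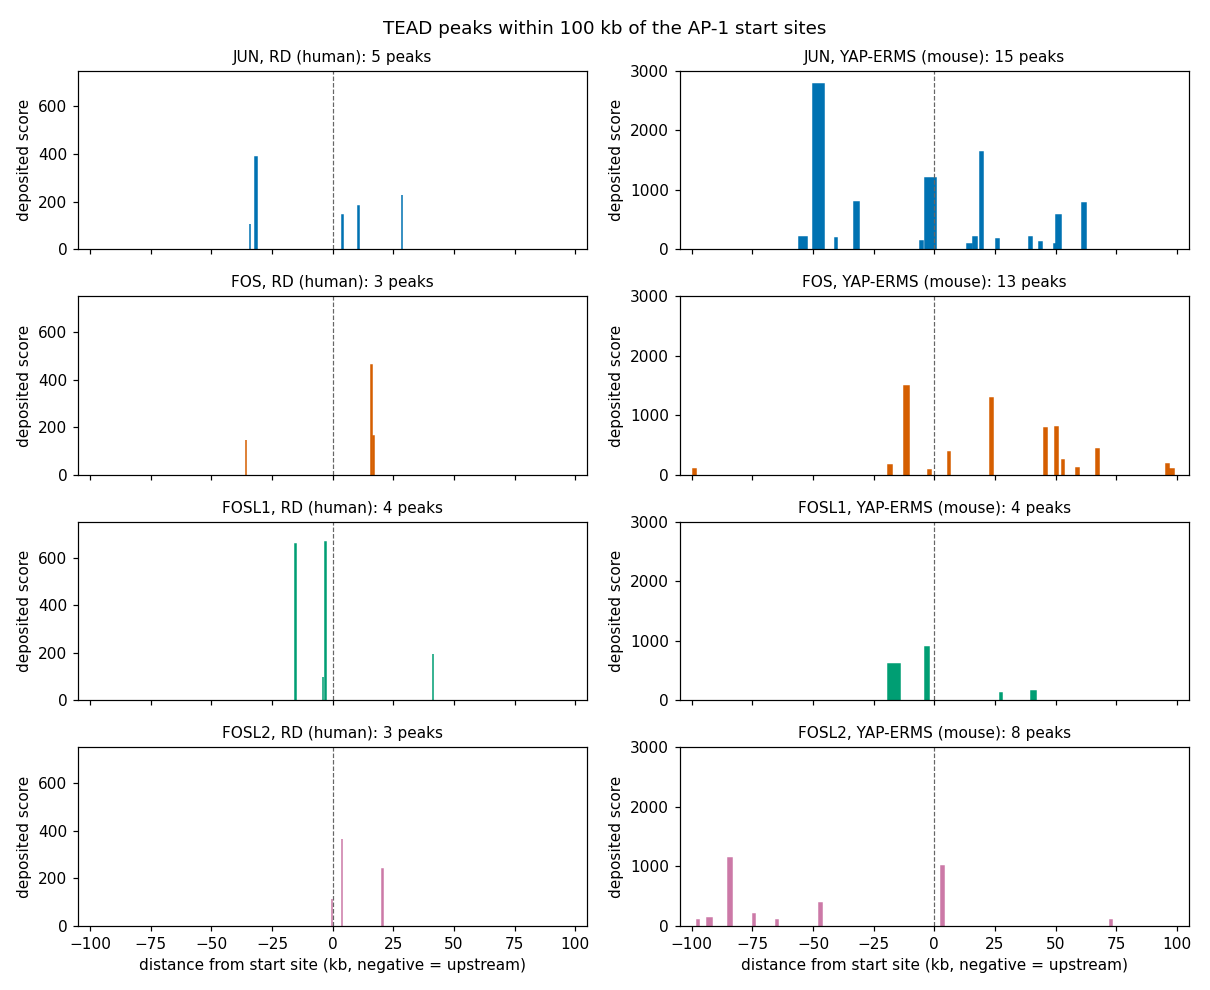
Deposited score (y axis) of every TEAD peak by distance from the start site in kb (x axis, negative upstream of the gene) at JUN, FOS, FOSL1 and FOSL2, with RD on the left and YAP-ERMS on the right. Bars are as wide as the peaks plus a thin outline, the dashed line is the start site, and the score axes of the 2 lists differ. RD has 5, 3, 4 and 3 peaks at the 4 genes and YAP-ERMS has 15, 13, 4 and 8.

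JUN encodes c-Jun, the AP-1 subunit that can pair with itself or with a FOS protein. In RD its start site lay at 59250 kb on chromosome 1 (hg19), and 5 peaks fell within 100 kb. A share of 10.2% of RD windows held 5 or more. The highest scoring lay 31.6 kb upstream, at 59281389 to 59281823, with a score of 386 and a width of 435 bp, which put it in the upper 24.1% of the list. A second, weaker peak stood beside it at 34.1 kb upstream, with a score of 106. The other 3 were downstream, at 4.04 kb (59245815 to 59246102, score 143), 10.7 kb (59239097 to 59239408, score 182) and 28.6 kb (59221227 to 59221626, score 227). No RD peak covered the JUN start site.

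Mouse Jun had the most peaks of the 4 genes in YAP-ERMS. Its start site lay at 94719 kb on chromosome 4 (mm9), and 15 peaks fell within 100 kb, a number reached by 2.08% of YAP-ERMS windows. The highest scoring, 47.8 kb upstream at 94764472 to 94769067, scored 2786 over 4596 bp and ranked 187 of 47033. Windows whose highest score was as high made up 1.43% of the list. The second, at 94698757 to 94700203, lay 19.5 kb downstream with a score of 1641 and rank 1169. The third, at 94718247 to 94722739, was 4493 bp wide with a score of 1199 and rank 2462, and it covered the start site whichever way the site had been rounded. It was the only one of the 55 member peaks in both lists that did.

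Of the 15 Jun peaks, 6 lay upstream and 9 downstream, at distances up to 61.7 kb and with scores from 83.1 to 2786. All of them fell into 3 chains of peaks separated by at most 12.5 kb. The longest chain, downstream of the gene, held 9 peaks over 49.0 kb. Chains of 9 or more made up 0.602% of the 26753 chains and single peaks in YAP-ERMS and held 3.76% of the peaks. A second chain of 4 peaks over 24.7 kb lay upstream and held the highest scoring peak, and the third was the pair at the start site. The 15 peaks covered 29.2 kb, or 14.6% of the 200 kb, and 0.280% of YAP-ERMS windows were covered to that length. The first peak beyond the limit was a strong one, 106 kb upstream with a score of 2600.

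FOS encodes c-Fos, an immediate early protein that binds DNA as part of a dimer, usually with a JUN protein. In RD its start site lay at 75745 kb on chromosome 14, and 3 peaks fell within 100 kb, a number reached by 22.2% of RD windows. The strongest was 16.0 kb downstream, at 75760787 to 75761264, with a score of 461, in the upper 19.4% of the list. A peak with a score of 165 followed at 16.9 kb downstream (75761737 to 75762010). The third lay 35.7 kb upstream, at 75709137 to 75709430, with a score of 148. FOS was the only one of the 4 genes with no RD peak within 5 kb of its start site.

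At mouse Fos, with its start site at 86815 kb on chromosome 12, 13 peaks fell within 100 kb, a number reached by 3.95% of YAP-ERMS windows. The highest score, 1494 at rank 1484, belonged to a 2221 bp peak 11.5 kb upstream, at 86802363 to 86804583. Next came a peak 23.7 kb downstream, at 86838105 to 86839258, with a score of 1289 and rank 2122, and a peak 50.3 kb downstream, at 86864702 to 86865803, with a score of 811. The nearest peak, 1.98 kb upstream at 86812472 to 86813563, scored 80.1, close to the lowest score that the list holds. A chain of 5 peaks ran from 45.1 to 67.8 kb downstream. Chains of 5 or more made up 4.74% of the 26753 chains and single peaks in YAP-ERMS. They held 17.6% of the peaks in that list. In the human annotation the next protein-coding genes downstream of FOS are JDP2 and BATF, which also encode AP-1 related proteins. Which gene, if any, these peaks act on was not tested.

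FOSL1 encodes Fra-1, a FOS protein that lacks the strong activation domain of c-Fos. In RD it held the highest scores of the 4 loci. Its start site lay at 65668 kb on chromosome 11, and 4 peaks fell within 100 kb, a number reached by 15.0% of RD windows. The highest scoring, 2.80 kb upstream at 65670562 to 65671046, had a score of 666, rank 2574 of 22681, and the next, 15.4 kb upstream at 65683168 to 65683544, had a score of 657 and rank 2636. They stood in the upper 11.3% and 11.6% of the list, just below its top 10%. The other 2 peaks scored 96.4 at 3.97 kb upstream and 195 at 41.3 kb downstream. The 3 upstream peaks formed 1 chain of 13.0 kb.

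Mouse Fosl1, with its start site at 5448 kb on chromosome 19, also had 4 peaks, but 40.6% of YAP-ERMS windows held as many or more, so its number of peaks was ordinary for that list. On chromosome 19 alone, where windows averaged 5 peaks, the share was 53.4%. The highest scoring peak again lay just upstream, at 2.92 kb (5444287 to 5445882), with a score of 904 and rank 4145. A peak of 4814 bp at 16.6 kb upstream (5428977 to 5433790) was the widest of the 40 and had a score of 612. The remaining peaks, at 27.5 and 40.8 kb downstream, scored 116 and 161. FOSL1 lies among closely spaced genes, with CCDC85B, FIBP and CTSW as the next protein-coding genes on its 3′ side and C11orf68 and DRAP1 on its 5′ side in the human annotation.

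FOSL2 encodes Fra-2, the other FOS-like protein. In RD its start site lay at 28616 kb on chromosome 2, and 3 peaks fell within 100 kb, a number reached by 22.2% of RD windows. On chromosome 2 alone the share was 33.0%. The peak nearest to any RD start site was here, at 28615636 to 28615878. Its score was 111, and its edge was 122 bp from the given start site, less than the rounding of that site. The strongest was 3.84 kb downstream, at 28619672 to 28620018, with a score of 367, just short of the top 25% of the list. The third lay 20.7 kb downstream with a score of 240.

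Mouse Fosl2, with its start site at 32439 kb on chromosome 5, had 8 peaks, a number reached by 16.7% of YAP-ERMS windows. They were spread unevenly, with 6 upstream and 2 downstream. The highest score, 1138, was far from the gene, 84.1 kb upstream at 32353968 to 32355776. The second, 1011 at rank 3392, lay 3.43 kb downstream at 32441679 to 32443179 and was the nearest to the start site. The third, 46.8 kb upstream at 32391600 to 32392731, scored 385. BABAM2 and RBKS are the next protein-coding genes upstream of FOSL2 in the human annotation, and which gene, if any, the distant upstream peaks act on was not tested.

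**Figure D2:**
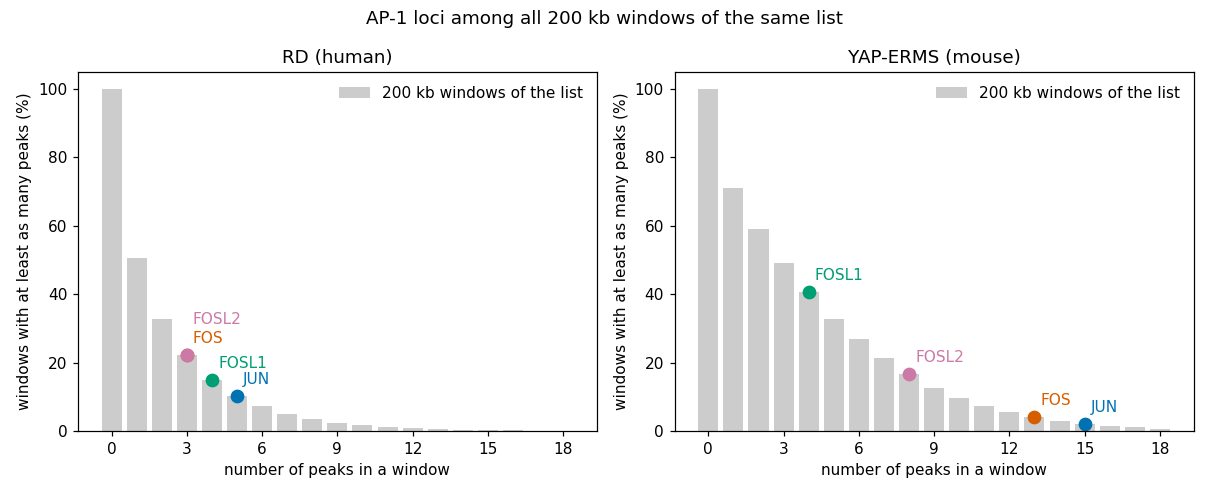
Share of all 200 kb windows of a list (y axis, percent) that held at least the number of peaks on the x axis, for RD (14687 windows) and YAP-ERMS (12839 windows), with the 4 AP-1 loci as coloured points. In RD the loci lie between 10.2% and 22.2%, with FOS and FOSL2 at the same point, and in YAP-ERMS they spread from 2.08% at JUN to 40.6% at FOSL1.

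The order of the 4 loci by number of peaks was JUN, FOSL1, then FOS and FOSL2 in RD, and JUN, FOS, FOSL2, FOSL1 in YAP-ERMS. In RD the exact Poisson 95% intervals of all 4 counts overlapped (1.62 to 11.7 for JUN, 1.09 to 10.2 for FOSL1, 0.619 to 8.77 for FOS and for FOSL2), so no order can be read from these numbers. In YAP-ERMS the intervals of all 4 also overlapped, with 8.40 to 24.7 for JUN, 6.92 to 22.2 for FOS, 3.45 to 15.8 for FOSL2 and 1.09 to 10.2 for FOSL1. Overlap of intervals is not a test of equality, and differences between the loci were not tested. Among windows that held any peak, 20.3% in RD and 2.92% in YAP-ERMS had as many as JUN. JUN had the most peaks in both lists as counted, by 1 peak in RD and by 2 in YAP-ERMS, and this lead depended on the settings. In RD, windows of 25 kb to either side held 2 peaks at JUN, 3 at FOSL1 and 3 at FOSL2, and 2 peaks at JUN and 3 at FOSL1 scored above the list's median. With a score limit of 160, JUN and FOSL1 both had 3 RD peaks. In YAP-ERMS, JUN and FOS both had 5 peaks within 25 kb, and both had 12 once peaks within 1 kb were joined.

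By score, the RD members were ordinary for their list. Their median was 195, against 189 over all RD peaks, and 8 of 15 scored above the list's median. Of the 15, 4 (26.7%) were in the top 25% of scores and 0 in the top 10%. A peak in the top 25% was present at 3 of the 4 loci (JUN, FOS and FOSL1), against 23.5% of RD windows, and one in the top 10% at 0 of 4, against 11.7%. In YAP-ERMS the median of the members was 209, against 205 over the list, and 22 of 40 scored above the list's median. All 4 loci held a peak in the top 25% of scores, against 42.4% of YAP-ERMS windows, and 15 of the 40 members (37.5%) were in it. All 4 also held a peak in the top 10%, against 24.1% of windows, and 8 of the 40 members (20%) were in it. Those 8 were 3 at Jun, 2 at Fos, 1 at Fosl1 and 2 at Fosl2. The shares of windows include empty ones, which made up 49.5% in RD and 28.9% in YAP-ERMS. A window with more peaks is also likelier to hold a high score. The comparisons by locus therefore do not separate score from number of peaks. The share of members in the top 10% was higher in YAP-ERMS than in RD, with 8 of 40 against 0 of 15. The share in the top 25% was also higher, at 37.5% against 26.7%. The shares above the list's median were alike, at 55% in YAP-ERMS and 53.3% in RD. The RD members are few, the lists differ in species, control and possibly depth, and the differences at the top were not tested.

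**Figure D3:**
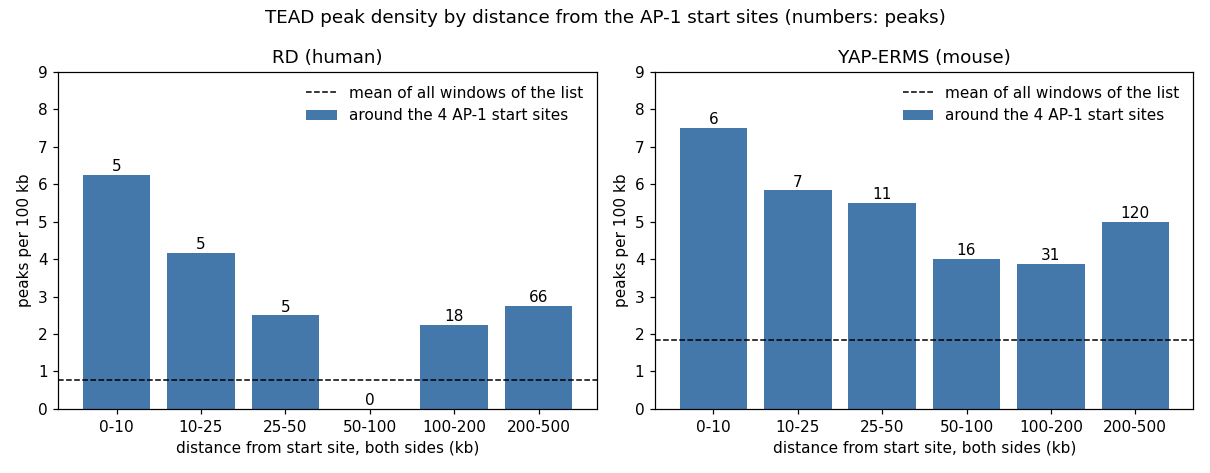
TEAD peaks per 100 kb (y axis) by distance from the 4 AP-1 start sites, both sides together (x axis, kb), in RD and YAP-ERMS, with the number of peaks above each bar and the mean of all windows of the list as a dashed line. RD has 6.25 peaks per 100 kb within 10 kb and 0 between 50 and 100 kb, and YAP-ERMS has 7.50 within 10 kb and 4.0 between 50 and 100 kb.

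Over the 4 genes together, peaks were densest within 10 kb of the start sites in both lists. In RD, 5 peaks lay within 10 kb of the 4 start sites, which is 6.25 per 100 kb against a list mean of 0.770, and the density was 4.17 from 10 to 25 kb and 2.50 from 25 to 50 kb. All 15 lay within 41.3 kb, and the 400 kb from 50 to 100 kb held 0, where the list mean would put 3.08 peaks. A count of 0 allows up to 3 by an upper limit alone, and more by the exact Poisson interval used for the other counts. The 3.08 peaks at the list mean thus lie inside that exact interval, which treats peaks as independent. Beyond 100 kb the density was 2.25 per 100 kb from 100 to 200 kb and 2.75 from 200 to 500 kb. Both are above the list mean, and the gap was not tested against them. In YAP-ERMS the density was 7.50 within 10 kb, 5.83 from 10 to 25 kb, 5.50 from 25 to 50 kb and 4.0 from 50 to 100 kb, against a list mean of 1.83. It was still 3.88 from 100 to 200 kb and 5.0 from 200 to 500 kb. The wider neighbourhoods of the 4 genes were thus also denser in peaks than the list mean in both cell types. The density exceeded that from 200 to 500 kb only up to 25 kb in RD and up to 50 kb in YAP-ERMS. The pooled pattern did not hold at every gene. JUN was densest from 25 to 50 kb in both lists, with 6 peaks per 100 kb in RD and 14 in YAP-ERMS, against 5 and 10 within 10 kb. FOS in RD had 0 within 10 kb and 6.67 per 100 kb from 10 to 25 kb, and Fosl2 in YAP-ERMS had 5 within 10 kb and 6 from 50 to 100 kb. These densities rest on 7 peaks or fewer each.

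A peak within 5 kb of the start site was present at 3 of 4 genes in RD (JUN, FOSL1 and FOSL2), against 6.36% of all 10 kb windows of the list. In YAP-ERMS all 4 genes had one, against 14.8% of 10 kb windows. These windows were tiled over the genome and not centred on genes, so the values do not tell AP-1 genes from other genes. The scores of these nearest peaks ran widely, from 111 to 666 in RD over JUN, FOSL1 and FOSL2 and from 80.1 to 1199 in YAP-ERMS.

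Distances from the start site were set side by side for the 2 species, after the positions had been seen. Of the 15 RD peaks, 4 had a YAP-ERMS peak of the same gene within 1 kb of the same distance on the same side. At FOSL1 they were the highest scoring peak of the locus in each list, 2.80 kb upstream in RD and 2.92 kb upstream in YAP-ERMS, and a second pair at 41.3 and 40.8 kb downstream. At FOSL2 the pair lay 3.84 kb downstream in RD and 3.43 kb downstream in YAP-ERMS, and at JUN it lay 31.6 kb upstream in RD and 32.1 kb upstream in YAP-ERMS. The RD member of the pair was the highest scoring RD peak of its locus at FOSL1, FOSL2 and JUN. At FOS no pair was closer than 6.81 kb. Start sites were rounded in both species, so a gap between 2 distances is uncertain by up to about 1 kb, as much as the limit used. The number of pairs could thus change with exact start sites.

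The match in distance has to be read against how much of each window lies within 1 kb of a YAP-ERMS peak. That share was 4.0% at FOSL1, 8.0% at FOSL2, 12.8% at FOS and 14.7% at JUN, so a close pair says least at JUN. The share of RD peaks with such a partner was 26.7%, or 4 of 15, against a mean of 10.1% of the window over the 15 peaks. These shares are means over a whole window, and peaks are not spread evenly within it. Distances were not aligned between the genomes, and whether the paired peaks lie in the same conserved element was not tested.

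**Figure D4:**
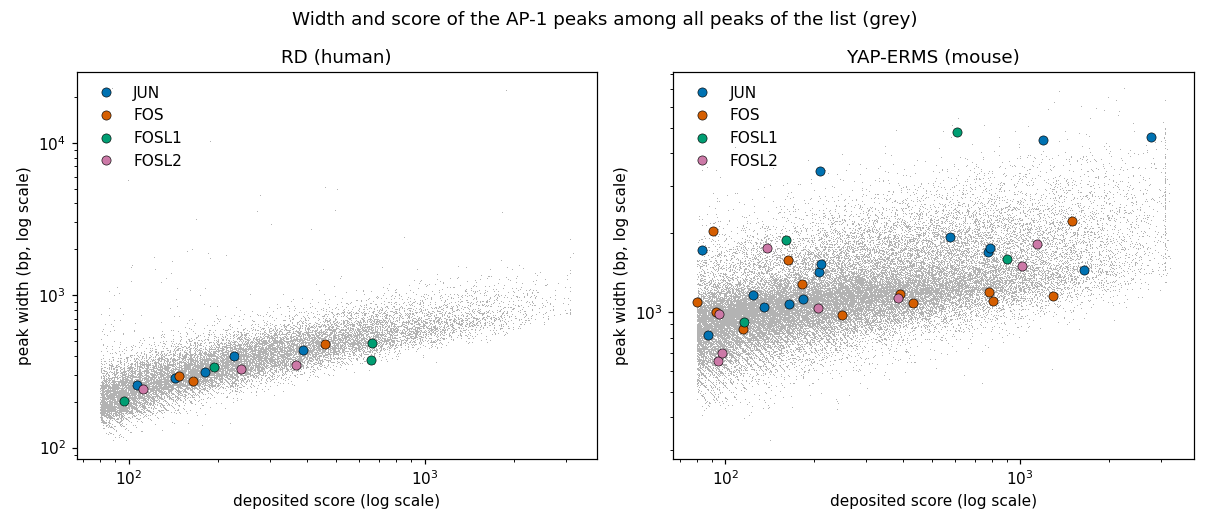
Peak width in bp (y axis, log scale) against deposited score (x axis, log scale) for all peaks of a list (grey) and for the peaks at the 4 AP-1 loci (coloured), in RD and YAP-ERMS. The RD members are between 202 and 485 bp wide and lie within the grey cloud, and in YAP-ERMS 4 members of 3413 to 4814 bp, at JUN and FOSL1, lie at its upper edge.

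The RD members were 202 to 485 bp wide, with a median of 329 bp against 335 bp for the list. In YAP-ERMS they were 655 to 4814 bp wide, with a median of 1234 bp against 1083 bp. Since higher scoring peaks are wider, each width was also set against the median width of peaks of like score in the same list. None of the 15 RD members was over 2-fold wider than that median, against 0.701% of the list. In YAP-ERMS 6 of 40 were, or 15%, against 1.82% of the list. Of these 6, 4 were at Jun, including the peak over its start site at 1.55 log2 units above the median and the highest scoring peak at 1.26. The others were the 4814 bp peak at Fosl1, at 1.85 log2 units, and a weak peak 97.7 kb downstream of Fos, at 1.20 log2 units. Whether such wide peaks hold several binding sites joined together cannot be told from the lists, which give no summits.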

How the data were processed

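TEAD, IgG and input ChIP-seq libraries (4 in all, 1 per group) were analysed through 2 deposited peak lists. Reads were aligned with Bowtie2 to hg19 and mm9, per the submitters' processing notes. The authors called the peaks (names as MACS writes them) against IgG in RD and input in YAP-ERMS, with a p limit of 1e-08 in the lists' names, and deposited 1 score per peak. No source used here gives versions, read filters or depth.

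Peaks were assigned by midpoint to windows of 100 kb to either side of start sites given to 1 kb. The members, lists and rules were chosen with earlier results of these data known. Strands are those known for each gene. For background, each list was tiled into 200 kb windows (and 10 kb windows) over the span of its peaks on each autosome and X. Width at matched score used 50 score bins. Peaks named were the nearest, those at the start site and the 3 highest scoring at each locus, and others were added after their values were seen. No annotation of hg19 or mm9 was used here, so other AP-1 genes were not counted, and gene neighbours are RefSeq names on GRCh38.p14. Window counting was tested on simulated data. Python 3.11.15, numpy 2.4.6, pandas 2.3.3, scipy 1.17.1 and matplotlib 3.10.9 were used.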

Additional observations from a re-analysis of the deposited data

How the results depend on the processing

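No paired analysis was possible because each group held 1 library and the values come from no test. With windows of 50 kb to either side, the 15 RD peaks at the 4 loci stayed 15 and the 40 YAP-ERMS peaks became 24 (42.4 kb of peak length, against 64.7 kb). With 25 kb they were 10 (3.34 kb, against 5.06 kb) and 13 (25.4 kb). Keeping peaks above the median score left 8 in RD (3.19 kb) and 22 in YAP-ERMS (43.1 kb). Smaller windows and higher limits lower such values by construction. Without the Jun locus, an alternative added after the data were seen, 25 YAP-ERMS and 10 RD peaks remained in the count. A score limit of 160 left 10 RD peaks, 1.5 times fewer, and 27 YAP-ERMS peaks. The totals moved by less than 1.5 times with peaks within 1 kb joined (13 in RD, 36 in YAP-ERMS), with any overlap in place of the midpoint, and with start sites moved by 1 kb. Shares of windows stayed within their Wilson 95% intervals when tiled with an offset of 100 kb. Counts by locus moved by over 1.5 times in 15 of 64 alternatives, always downward. Unknown depth and the lack of replicates limit all values.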

Other observations

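The nearest peaks outside the 100 kb limit are given as values. In RD they were 117 kb upstream of JUN with a score of 161, 156 kb downstream of FOS with a score of 167, 108 kb upstream of FOSL1 with a score of 88.4 and 101 kb upstream of FOSL2 with a score of 311. In YAP-ERMS they were 106 kb upstream of Jun with a score of 2600, 101 kb downstream of Fos with a score of 282, 102 kb upstream of Fosl1 with a score of 1165 and 101 kb upstream of Fosl2 with a score of 221.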
